A study of Arabidopsis thaliana with 18 samples.

Results

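SAUR (SMALL AUXIN UP RNA) genes encode short proteins whose transcripts accumulate within minutes of auxin treatment in many tissues. SAUR proteins such as SAUR19 bind and inhibit the PP2C.D protein phosphatases, which otherwise remove an activating phosphate from the plasma membrane proton pumps (AHA). Active pumps acidify the cell wall and the cell expands. AUXIN RESPONSE FACTOR7 (ARF7, encoded by *NPH4*) and ARF19 are transcription factors that activate auxin-responsive genes, and the double mutant *nph4-1 arf19-1* carries a mutation in each gene.

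RNA was sequenced from Arabidopsis (*Arabidopsis thaliana*, Columbia-0) leaf mesophyll protoplasts, which are single cells freed from their walls, taken from rosette leaves of wild-type (WT) and *nph4-1 arf19-1* plants at 23 days after sowing. There were 18 libraries in 6 groups of 3: freshly isolated protoplasts of each genotype (Day 0), and protoplasts of each genotype embedded in alginate and cultured in the dark for 4 or 6 days (Days 4 and 6) in medium with 1 mg/L of the synthetic auxin 2,4-D and 176 µg/L of the cytokinin-like compound thidiazuron. Every cultured library of both genotypes therefore came from cells given auxin. The Day 6 *nph4-1 arf19-1* libraries carry yucasin, an inhibitor of YUC auxin biosynthesis enzymes, as their treatment label, and the Day 6 WT libraries carry control. The paper names no yucasin for this group. Genotype and labelled treatment thus cannot be told apart at Day 6.

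The genes described are 44 loci of the SAUR family, given by a list of loci and taken through the lowest-numbered splice variant. Of these, 31 had a row in the count tables and 13 had none: *SAUR2*, *SAUR3*, *SAUR10*, *SAUR12*, *SAUR19* to *SAUR22*, *SAUR24*, *SAUR26*, *SAUR63*, and AT1G29490 and AT1G29510, which RefSeq both names *SAUR68*. Every row in the tables had at least 1 read over the 18 libraries. Of the 31 with a row, 13 had at most 3 reads in every library, 6 had more than 3 reads in some library but too few to be tested (*SAUR5*, *SAUR14*, *SAUR16*, *SAUR25*, *SAUR52* and *SAUR76*), and 12 were tested. The tested share was 38.7% of members with a row, beside 74.1% of all genes with a row (18172 of 24532).

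Library totals ran from 3438524 to 12119944 mapped reads (median 6291177). Levels are in CPM, the count of a gene scaled to its library's total after TMM normalization, and 3 reads, taken as the floor, correspond to 0.282 to 0.786 CPM. Genotype labels were checked with the mutated genes: *NPH4* was at 152 to 165 CPM in WT and 36.9 to 49.4 CPM in the mutant at Day 0, and *ARF19* was at 43.6 to 81.5 CPM in cultured WT and 7.12 to 10.2 CPM in the cultured mutant, with overlapping levels at Day 0. The labelled cell type was checked with 4 mesophyll genes, whose summed level was 707 to 2300 CPM at Day 0 and 141 to 449 CPM in culture. The labels number replicates, and the paper calls the RNA samples of each time point biological replicates. Neither says for these RNA samples whether they were separate isolations, so p-values measure the spread between these samples. In bulk samples, fewer cells of a type and less RNA per cell cannot be told apart. Wherever groups of libraries are said not to overlap, such separation was not counted over all variants.

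Upstream sequences are shown for the members that differed most between genotypes, with one member for contrast. *SAUR50* was lower in the mutant at Days 4 and 6 and *SAUR8* at Day 6, *SAUR55* was higher on both days and *SAUR32* at Day 4, and *SAUR15*, a classical auxin-induced member, had 1 read in all 18 libraries. Each run is the 250 bases before the annotated start of the lowest-numbered transcript in RefSeq's TAIR10.1 genome, 5′ to 3′ on the gene's strand. Capitals mark TGTC or its complement GACA, the core that auxin response factors recognise.
SAUR50 (chr4:16583076-16583325, minus strand): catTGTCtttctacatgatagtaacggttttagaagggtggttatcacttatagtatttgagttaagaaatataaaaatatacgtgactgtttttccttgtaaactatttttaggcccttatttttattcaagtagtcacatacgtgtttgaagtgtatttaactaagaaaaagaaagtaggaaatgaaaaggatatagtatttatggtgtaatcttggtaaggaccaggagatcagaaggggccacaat
SAUR8 (chr2:7186969-7187218, minus strand): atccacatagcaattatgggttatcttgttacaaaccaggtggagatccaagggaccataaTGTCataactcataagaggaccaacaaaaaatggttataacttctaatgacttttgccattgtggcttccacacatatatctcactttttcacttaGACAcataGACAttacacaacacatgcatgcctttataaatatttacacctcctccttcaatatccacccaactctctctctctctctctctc
SAUR55 (chr5:20644275-20644524, plus strand): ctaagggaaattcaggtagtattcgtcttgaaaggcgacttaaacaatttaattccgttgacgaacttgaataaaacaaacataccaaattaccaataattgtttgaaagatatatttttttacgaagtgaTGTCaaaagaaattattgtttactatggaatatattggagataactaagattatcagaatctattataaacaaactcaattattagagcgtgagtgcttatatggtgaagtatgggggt
SAUR32 (chr2:19180455-19180704, plus strand): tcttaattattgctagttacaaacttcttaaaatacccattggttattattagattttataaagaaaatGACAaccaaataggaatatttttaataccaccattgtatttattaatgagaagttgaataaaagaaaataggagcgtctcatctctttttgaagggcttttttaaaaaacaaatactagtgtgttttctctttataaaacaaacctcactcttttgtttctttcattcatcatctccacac
SAUR15 (chr4:18125807-18126056, plus strand): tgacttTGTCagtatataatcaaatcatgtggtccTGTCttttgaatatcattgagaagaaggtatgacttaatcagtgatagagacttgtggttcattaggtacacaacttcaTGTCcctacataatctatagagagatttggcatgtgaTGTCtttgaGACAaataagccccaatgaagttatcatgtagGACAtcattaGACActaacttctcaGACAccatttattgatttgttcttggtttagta

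*SAUR15* held 8 such cores in its window, the highest number among the 44 members, whereas *SAUR50*, *SAUR55* and *SAUR32* held 1 each and *SAUR8* held 3. Members with no row ranged from 0 (*SAUR2* and *SAUR3*) to 7 (*SAUR24*), with 6 in *SAUR21* and 5 in *SAUR22* and *SAUR63*. Tested members ranged from 0 (*SAUR72* and *SAUR78*) to 5 (*SAUR61*). Searched on both strands, TGTC was present in 81.8% of the 44 member windows and 74.7% of the 31345 windows of the same length at all mRNA loci, with medians of 2.5 and 1 per window. The full auxin response element TGTCTC was present in 8 member windows (18.2%, against 11% of all windows) and TGTCGG in 2 (4.55%, against 4.17%). None of the 12 tested members held either of these hexamers in this window. The G-box CACGTG was in no member window (6% of all), and CATATG was in 8 (18.2%, against 6.72%). Of the tested members, *SAUR9* alone held CATATG. These matches are descriptions of letters and not of binding. The search for the TGTC core was added after the values had been seen.

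Members in tandem arrays and members that stand alone were counted apart. In TAIR10.1, 32 of the 44 genes lay in 8 tandem arrays and 12 lay alone. Of the array members, 20 had a row, 7 had more than 3 reads in some library and 3 were tested (*SAUR50*, *SAUR51* and *SAUR61*), with 904 reads in all. Of the single loci, 11 had a row, all 11 exceeded 3 reads and 9 were tested, with 7554 reads in all. The arrays include *SAUR19* to *SAUR24* on chromosome 5 (5962773 to 5984308), whose hypocotyl-expressed members share 87.7% to 95.2% of aligned coding bases, and *SAUR61* to *SAUR65* on chromosome 1 (10301377 to 10308246), which share 76% to 89%.

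The members on which the results turn are single-exon genes except *SAUR8*, whose transcript has 2 exons. In TAIR10.1, *SAUR50* (AT4G34760) lies on chromosome 4 from 16582183 to 16583075, *SAUR8* (AT2G16580) on chromosome 2 from 7184422 to 7187009 and *SAUR51* (AT1G75580) on chromosome 1 from 28377377 to 28378310. *SAUR71* (AT1G56150) lies on chromosome 1 from 21017311 to 21018122, *SAUR55* (AT5G50760) on chromosome 5 from 20644525 to 20645698 and *SAUR32* (AT2G46690) on chromosome 2 from 19180705 to 19181600. The other tested members given with library values, in some groups only, are *SAUR9* (AT4G36110), *SAUR36* (AT2G45210), *SAUR61* (AT1G29420), *SAUR72* (AT3G12830) and *SAUR78* (AT1G72430). Their annotated proteins range from 104 residues (*SAUR9*) to 183 (*SAUR55*).

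The authors kept uniquely mapped reads, so near-identical copies could lose reads. Windows of 36 bases along each transcript that occur once in the genome were counted by exact match, the read length not being given in the sources used here. The tested members had 94.4% to 100% unique windows, with *SAUR8* the lowest. Members with at most 3 reads had 69.0% (*SAUR62*) to 100%, and members with no row had 57.7% (AT1G29510) to 100%. Over 90% of windows were unique in 12 of the 13 members with at most 3 reads and in 7 of the 13 with no row. The low values were those of *SAUR62*, *SAUR63*, AT1G29510 and 4 genes of the *SAUR19* array, which are therefore uncertain. *SAUR23*, within that array, had 93.4% unique windows and 1 read in all libraries together.

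**Figure D1:**
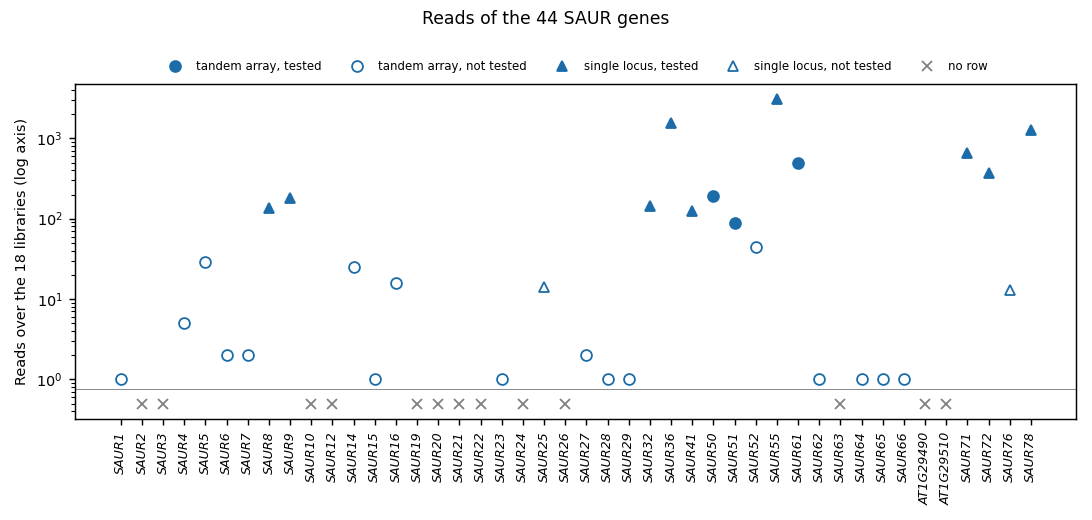
Reads of each of the 44 SAUR genes summed over the 18 libraries (log axis); circles are members of tandem arrays, triangles single loci, filled symbols tested genes and crosses genes with no row. 9 of the filled symbols are triangles, and most array members lie low on the axis or have no row.

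Levels per length placed *SAUR55* first among members. Averaged over the 18 libraries it was at 25.0 CPM per kb of transcript, followed by *SAUR36* at 11.0, *SAUR78* at 8.37, *SAUR61* at 6.30 and *SAUR71* at 5.76 CPM per kb. The other 7 tested members lay between 0.621 (*SAUR51*) and 2.95 (*SAUR72*) CPM per kb. The order changed with time: *SAUR55* made up 58.9% to 71.7% of the members' summed CPM in WT at Day 0 and 3.54% to 5.7% at Day 6, whereas it was still 33% to 35.3% in *nph4-1 arf19-1* at Day 6. *SAUR71* went from 0% to 19.7% to 25.3% of the sum in WT over the same days and reached 8.08% to 15% in the mutant.

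The summed CPM of the 31 members with a row averaged 101 ± 23 for WT and 71.1 ± 20.2 for the mutant on Day 0 (SD of 3 libraries, as for the other sums). It was 60.7 ± 5.4 and 78.4 ± 4.86 at Day 4, and 63.0 ± 5.27 and 56.2 ± 7.13 at Day 6. Without *SAUR55* and *SAUR36* the sum was 11.4 ± 2.82, 35.4 ± 5.84 and 48.9 ± 6.31 CPM in WT at Days 0, 4 and 6, and 21.1 ± 3.42, 29.8 ± 3.1 and 29.3 ± 3.16 CPM in the mutant. These sums were not tested.

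**Figure D2:**
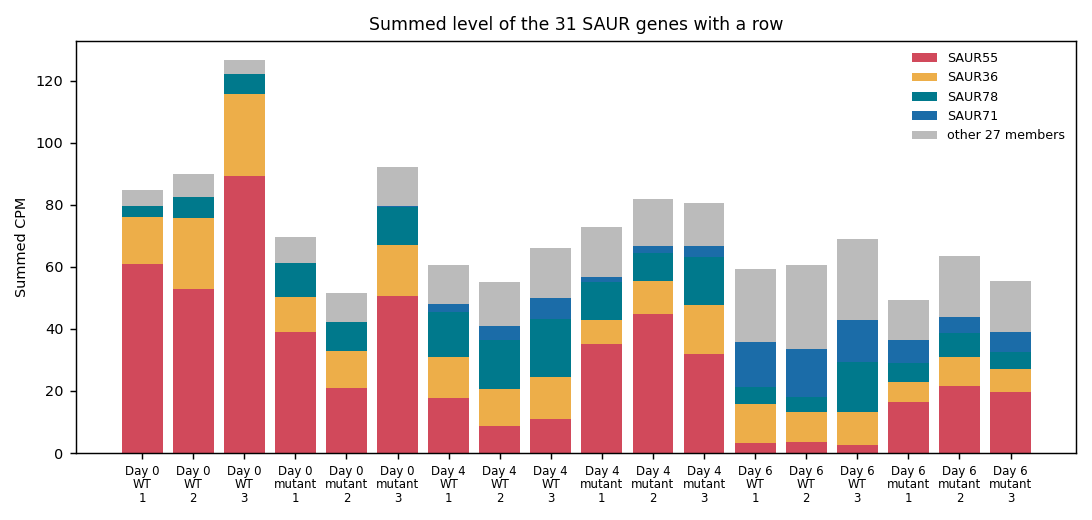
Summed CPM of the 31 SAUR genes with a row in each of the 18 libraries, stacked by *SAUR55*, *SAUR36*, *SAUR78*, *SAUR71* and the other 27 members. *SAUR55* takes most of each WT bar at Day 0 and 3.54% to 5.7% of it at Day 6.

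The first comparison asks which SAUR genes changed as WT protoplasts went from isolation to Day 4. Of the 12 tested members, 7 rose and 3 fell at FDR < 0.01. Over all 25202 splice variants tested, 42.6% rose and 37% fell (79.5% in all), so most transcripts passed and the members' count is near that background. The members' median log2 fold change was 1.30, beside 0.23 over all variants. It includes *SAUR50*, *SAUR8* and *SAUR51*, which entered the test through cultured WT libraries only, and is no support for a direction of the family.

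*SAUR71* went from no read in the 3 Day 0 WT libraries to 2.63, 4.47 and 6.59 CPM at Day 4 (108 reads), at least 26.5-fold higher against a floor of 3 reads over the Day 0 group. *SAUR50*, which acts in light-dependent cotyledon opening, had 0, 1 and 0 reads at Day 0 and 10, 15 and 13 at Day 4, a 28-fold difference in pooled reads (95% counting interval 4.73 to 1130). *SAUR8* had 0, 1 and 0 reads and then 10, 11 and 6, a 19.9-fold difference (3.28 to 815). Likewise, *SAUR51* had 0, 1 and 0 reads and then 9, 9 and 8, a 19.2-fold difference (3.15 to 786). All 4 had 0 or 1 read in each fresh WT library and at least 6 reads in each Day 4 WT library. *SAUR50*, *SAUR8* and *SAUR51* reached 10 reads in cultured WT libraries only, so they entered the test through those groups and their calls are no support for a direction of the family. The intervals cover counting error only.

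The other risers were present at Day 0. *SAUR72* was at 0.385, 0.787 and 0.203 CPM and then 2.75, 2.37 and 3.75 CPM (log2 fold change 2.51 ± 0.46 SE, FDR 4.19e-05). *SAUR78*, whose protein interacts with ethylene receptors, was at 3.65, 6.82 and 6.5 CPM and then 14.5, 15.8 and 18.9 CPM (1.51 ± 0.353 SE, FDR 0.000561). *SAUR61* was at 1.15, 2.76 and 1.02 CPM and then 2.86, 3.95 and 4.65 CPM (1.09 ± 0.346 SE, FDR 0.00642), and its call was lost without Day 0 WT replicate 1 or 3 or Day 4 WT replicate 2 or 3 (FDR 0.0154 to 0.0303) or with only the groups compared (FDR 0.0105). In all of these the Day 0 and Day 4 libraries did not overlap, a separation that was not counted over all variants. *SAUR61* overlaps AT1G06257 and *SAUR8* overlaps AT2G16575, both on the opposite strand, and whether counting used strand is not given in the sources used here.

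*SAUR55* fell most, from 60.8, 53.0 and 89.4 CPM at Day 0 to 17.6, 8.55 and 11.0 CPM at Day 4 (log2 fold change -2.43 ± 0.276 SE, FDR 7.14e-08). *SAUR32*, a gene of apical hook formation, was at 2.31, 1.71 and 1.42 CPM and then 0.687, 0.658 and 0.646 CPM (-1.42 ± 0.42 SE, FDR 0.00402). *SAUR36*, a gene linked with leaf senescence, was at 15.2, 22.6 and 26.4 CPM and then 13.2, 12.1 and 13.4 CPM (-0.73 ± 0.212 SE, FDR 0.00352). The Day 0 libraries were all higher than the Day 4 libraries for the 3 genes, which was not counted over all variants. The *SAUR32* call was lost on leaving out either of Day 0 WT replicates 1 and 2 or any 1 Day 4 WT library (FDR 0.0115 to 0.0253), and the *SAUR36* call without Day 0 WT replicate 2 or 3 or Day 4 WT replicate 2 (FDR 0.0145 to 0.0351) or with only the groups compared (FDR 0.0174). DESeq2 called neither of these 2 (FDR 0.0149 and 0.0104). With only the groups compared, *SAUR32*, *SAUR8* and *SAUR51* did not pass the filter on low counts, and 5 members were called. Scaling matters most here: TMM factors were 0.564 to 0.683 at Day 0 and 1.09 to 1.5 in culture, and without TMM the median of all variants moved from 0.23 to 1.26. Without TMM *SAUR36* turned to 0.30, *SAUR32* lost its call (FDR 0.384), 8 members rose and 1 fell, and over all variants 74.9% of calls were increases instead of 53.5%. *SAUR41* and *SAUR9* did not pass the test.

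From Day 4 to Day 6 in WT, 3 of 12 members rose and 1 fell (9.27% and 11.8% of all variants, 21.1% in all). The median of members was 0.53 and of all variants 0.00807 (0.149 without TMM, when 63.4% of calls over all variants were increases instead of 44%). The members' median again includes *SAUR50*, *SAUR8* and *SAUR51* and is no support for a direction of the family. This comparison shares the Day 4 WT libraries with the one above. *SAUR50* was at 1.15, 1.97 and 1.68 CPM at Day 4 and 4.96, 6.67 and 4.32 CPM at Day 6 (log2 fold change 1.73 ± 0.348 SE, FDR 0.000758). *SAUR71* reached 14.7, 15.3 and 13.6 CPM (1.68 ± 0.259 SE, FDR 8.66e-05) from the Day 4 values given above. *SAUR8* went from 1.15, 1.45 and 0.776 CPM to 2.42, 5.11 and 3.01 CPM (1.63 ± 0.424 SE, FDR 0.00579), and this call was lost without any 1 Day 4 WT library or Day 6 WT replicate 2 (FDR 0.0106 to 0.0472), with DESeq2 (FDR 0.0108) and with only the groups compared (FDR 0.0111). *SAUR55* fell further, to 3.23, 3.45 and 2.44 CPM (-2.04 ± 0.354 SE, FDR 0.000186). For each of these 4 genes the Day 4 and Day 6 libraries did not overlap, a separation that was not counted over all variants. *SAUR78* had 1 library apart at Day 6, with 16.3 CPM in replicate 3 against 5.42 and 4.89 CPM, and did not pass (FDR 0.0405).

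The same interval was compared in the mutant. From Day 0 to Day 4, 3 of 12 rose and 1 fell (39% and 36.1% of all variants, 75% in all). The members' median was 0.40, or 0.19 with *SAUR71* at its pooled ratio and 3 members with few reads in both groups left out, beside 0.18 over all variants. *SAUR71* went from 1, 0 and 2 reads to 12, 13 and 17 reads, a 12.6-fold difference (95% counting interval 4.02 to 63.4). *SAUR32* was at 0.561, 0.666 and 0.653 CPM and then 2.35, 3.52 and 1.44 CPM (log2 fold change 1.95 ± 0.443 SE, FDR 0.000463). *SAUR61* was at 1.87, 2.00 and 1.74 CPM and then 6.90, 5.63 and 7.63 CPM (1.83 ± 0.336 SE, FDR 4.84e-05). *SAUR9* fell from 2.99, 2.83 and 3.70 CPM to 1.38, 0.528 and 0 CPM (-2.1 ± 0.577 SE, FDR 0.00241), and its call was lost without Day 0 mutant replicate 3 or Day 4 mutant replicate 2 (FDR 0.0101 and 0.0114) and without TMM (-1.09, FDR 0.0962). The Day 0 and Day 4 libraries did not overlap for these 4 genes, a separation that was not counted over all variants. Without TMM, 8 members rose and 0 fell, while over all variants 76.4% of calls were increases instead of 51.9% and the median was 1.19.

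From Day 4 to Day 6 in *nph4-1 arf19-1*, *SAUR71* alone rose and 0 members fell (10.7% and 8.65% of all variants, 19.4% in all, and 5 members had an unadjusted p under 0.05, and DESeq2 also called 1). Its level was 1.66, 2.29 and 3.51 CPM at Day 4 and 7.41, 5.14 and 6.28 CPM at Day 6 (log2 fold change 1.37 ± 0.35 SE, FDR 0.00639), with no overlap between the days. The call was lost without Day 4 mutant replicate 1 or 2 or Day 6 mutant replicate 1 or 3 (FDR 0.0162 to 0.0461). The Day 6 mutant libraries carry the yucasin label, so time and labelled treatment cannot be told apart in this comparison. *SAUR50*, *SAUR8* and *SAUR51* had 0 to 3 reads in each of the 6 cultured mutant libraries. The mutant's median was -0.34, or -0.50 without these 3 members, beside -0.0143 over all variants (-0.128 without TMM, when 37.5% of calls were increases instead of 55.3%).

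**Figure D3:**
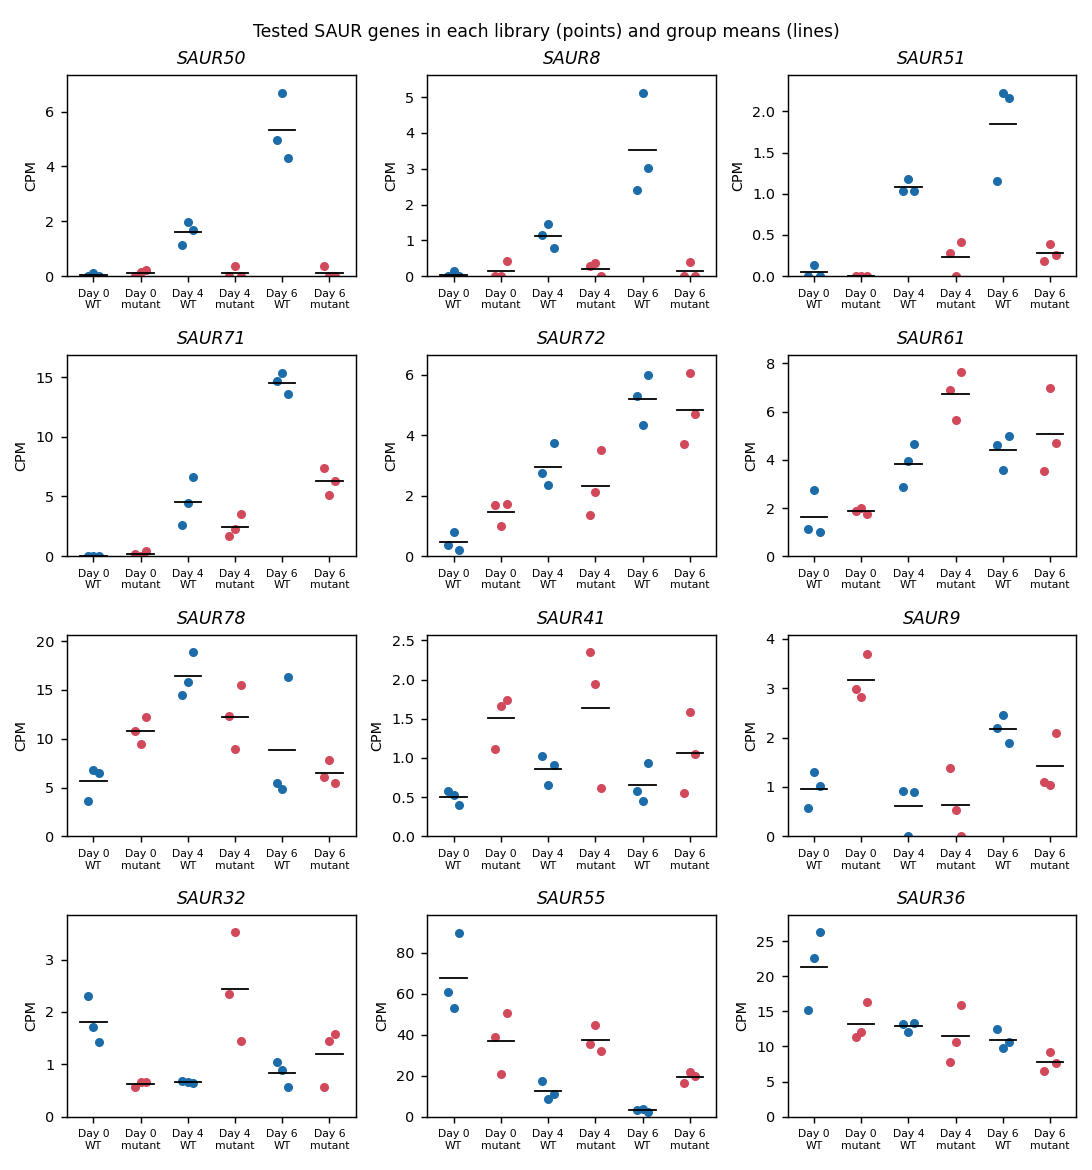
CPM of each of the 12 tested SAUR genes in the 18 libraries (points, WT blue and *nph4-1 arf19-1* red) with group means (lines), 1 linear axis from 0 per gene. *SAUR50*, *SAUR8* and *SAUR51* lie at or near 0 at Day 0, higher in WT culture, and at 0 to 3 reads in each cultured mutant library, and *SAUR55* is at 2.44 to 3.45 CPM in Day 6 WT and 16.3 to 21.6 CPM in the Day 6 mutant.

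The genotypes were next compared on each day. At Day 0, before culture, 0 of 12 members passed edgeR's test or DESeq2's, against 8.25% of all variants (6.4% higher and 1.84% lower in the mutant), and 7 had an unadjusted p under 0.05. The lowest FDR was 0.0236, for *SAUR55* at 38.9, 20.8 and 50.7 CPM in the mutant against the WT values above (log2 fold change -0.89 ± 0.258 SE). *SAUR36* was at 11.4, 12 and 16.3 CPM in the mutant, overlapping WT. *SAUR32* was at 0.561, 0.666 and 0.653 CPM in the mutant, below every WT library (2.31, 1.71 and 1.42 CPM), and did not pass (-1.50 ± 0.469 SE, FDR 0.0345). Going the other way, *SAUR9*, *SAUR41*, *SAUR72* and *SAUR78* were higher in every mutant library than in any WT library, and did not pass either. How often other variants separated in this way was not counted. *SAUR78* was at 10.8, 9.48 and 12.2 CPM in the mutant and 3.65, 6.82 and 6.5 CPM in WT. *SAUR9* was at 2.99, 2.83 and 3.7 CPM in the mutant and 0.577, 1.31 and 1.02 CPM in WT. Without TMM, 49.1% of calls over all variants were increases instead of 77.7%. Leaving out Day 0 mutant replicate 3 gave 1 call. The median of members was 0.92, or 0.49 without 4 members with few reads in both groups, beside 0.028 over all variants.

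At Day 4, *SAUR55* and *SAUR32* were higher in *nph4-1 arf19-1* and *SAUR50* was lower (2 and 1 of 12, against 14.8% and 13% of all variants, 27.8% in all). *SAUR55* was at 35.2, 44.7 and 31.8 CPM in the mutant and 17.6, 8.55 and 11.0 CPM in WT (log2 fold change 1.58 ± 0.281 SE, FDR 0.00017). *SAUR32* was at 2.35, 3.52 and 1.44 CPM in the mutant and 0.646 to 0.687 CPM in WT (1.86 ± 0.396 SE, FDR 0.000887), a call lost without Day 4 mutant replicate 2 (FDR 0.0109). *SAUR50* had 10, 15 and 13 reads in WT and 0, 2 and 0 in the mutant, a 14-fold difference in pooled reads (3.63 to 120, FDR 0.000949), and its call was lost without Day 4 mutant replicate 1 (FDR 0.0106). With only the groups compared, *SAUR32* and *SAUR50* did not pass the filter on low counts, and *SAUR55* was the 1 call. None of the 3 genes overlapped between genotypes, a separation that was not counted over all variants. *SAUR51* (9, 9 and 8 reads against 2, 0 and 2, FDR 0.0106) and *SAUR8* (10, 11 and 6 against 2, 2 and 0, FDR 0.0288) did not pass. Both genes and *SAUR50* entered the test through cultured WT libraries only, so their lower reads are no support for a direction of the family. *SAUR61*, at 6.90, 5.63 and 7.63 CPM in the mutant and 2.86, 3.95 and 4.65 CPM in WT, was higher and did not pass (0.82 ± 0.276 SE, FDR 0.0235). The median of members was -0.30, beside -0.00885 over all variants (-0.148 without TMM, when 37.2% of calls over all variants were increases instead of 53.3%). The members' median includes *SAUR50*, *SAUR8* and *SAUR51*, so it too is no support for a direction of the family.

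At Day 6, *SAUR55* was higher in *nph4-1 arf19-1* and *SAUR50*, *SAUR8*, *SAUR51* and *SAUR71* were lower (1 and 4 of 12, against 24% and 23.4% of all variants, 47.4% in all), with the labelled yucasin treatment also differing. Without TMM, 1 member was higher and 5 were lower, 25.5% of calls over all variants were increases instead of 50.7%, and the median of all variants moved from -0.0372 to -0.431. *SAUR50* had 43, 60 and 46 reads in WT and 2, 0 and 0 in the mutant, a 44.2-fold difference in pooled reads (95% counting interval 12 to 369, FDR 5.23e-07). *SAUR8* had 21, 46 and 32 reads against 0, 3 and 0, a 19.6-fold difference (6.51 to 96.6, FDR 2.66e-05). *SAUR51* had 10, 20 and 23 reads against 1, 3 and 1, a 6.29-fold difference (2.53 to 20.2, FDR 0.000523). The mutant was lower in every library for all 3 genes, which was not counted over all variants. These genes entered the test through cultured WT libraries only, so their calls here are no support for a direction of the family.

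*SAUR71* rose in both genotypes and lay lower in the mutant at Day 6, at 7.41, 5.14 and 6.28 CPM against 14.7, 15.3 and 13.6 CPM (log2 fold change -1.23 ± 0.263 SE, FDR 0.000643). *SAUR55* was at 16.3, 21.6 and 19.6 CPM in the mutant and 3.23, 3.45 and 2.44 CPM in WT (2.67 ± 0.351 SE, FDR 2.13e-06), so the genotypes did not overlap. *SAUR36* was at 6.48, 9.23 and 7.59 CPM in the mutant and 12.5, 9.78 and 10.7 CPM in WT, a difference that did not pass (-0.48 ± 0.242 SE, FDR 0.098). *SAUR32* overlapped between genotypes, at 0.556, 1.45 and 1.57 CPM in the mutant and 1.04, 0.889 and 0.564 CPM in WT (0.53 ± 0.433 SE, FDR 0.303). *SAUR72* (FDR 0.795) and *SAUR61* (FDR 0.455) gave log2 fold changes of -0.09 ± 0.273 and 0.25 ± 0.277 (SE). The median of members was -0.46, beside -0.0372 over all variants. As it includes *SAUR50*, *SAUR8* and *SAUR51*, which entered through cultured WT libraries only, it is no support for a direction of the family.

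**Figure D4:**
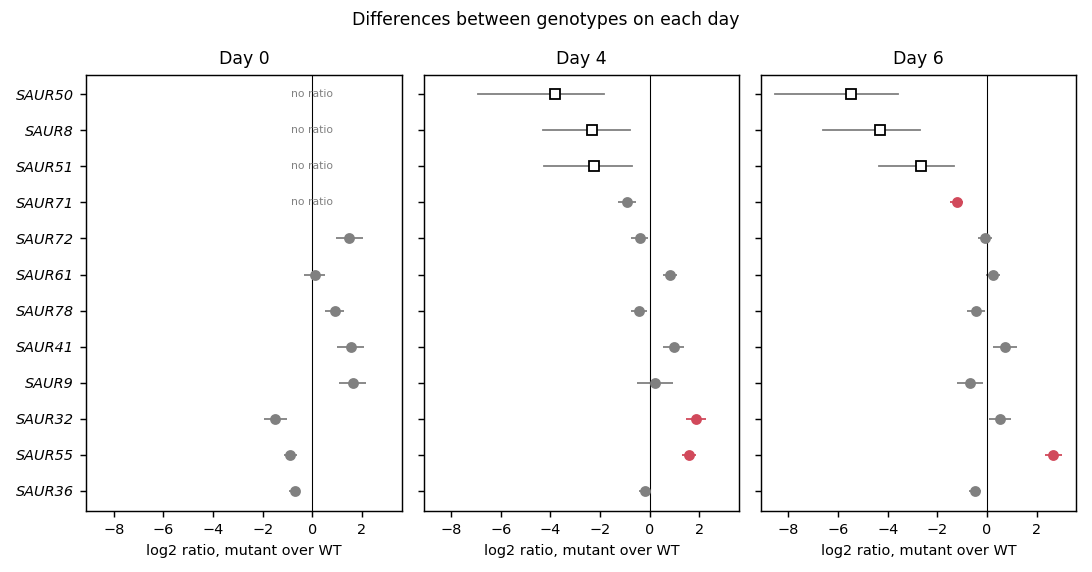
Log2 ratio of *nph4-1 arf19-1* over WT for the 12 tested SAUR genes at Days 0, 4 and 6. Circles are fitted log2 fold changes with SE bars, red at FDR < 0.01 and grey otherwise. Open squares are ratios of pooled reads with 95% counting intervals, for genes with at most 3 reads in each library of a group, of which *SAUR50* passed at Day 4 and all 3 at Day 6, and no ratio marks genes with such counts in both groups.

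The change from Day 0 to Day 4 itself differed between genotypes for 2 of 12 members, both higher in the mutant, with 0 lower (6.73% and 6.09% of all variants, 12.8% in all). The difference of log2 changes was 3.36 ± 0.612 (SE, FDR 0.000607) for *SAUR32*, which fell in WT and rose in the mutant from the lower Day 0 level given above, and 2.46 ± 0.381 (SE, FDR 0.000147) for *SAUR55*, which fell in WT and had a log2 fold change of 0.03 ± 0.265 (SE, FDR 0.913) in the mutant. *SAUR55* also started from a lower Day 0 level in the mutant, as given above, and that difference enters its value. The *SAUR32* value rests on few reads, with 3, 4 and 3 in the Day 0 mutant and 6, 5 and 5 in Day 4 WT. The test uses the same libraries as the comparisons above. For *SAUR50*, *SAUR8* and *SAUR51* it did not pass (FDR 0.105, 0.277 and 0.721), with at most 2 reads in each Day 0 library of either genotype. From Day 4 to Day 6 no member passed (0 of 12 by edgeR and 0 by DESeq2, 2 with an unadjusted p under 0.05, against 12.1% of all variants, 8.73% higher and 3.34% lower, a split of 72.3% increases that was 38.8% without TMM), although leaving out any 1 of Day 4 WT replicate 2, Day 4 mutant replicates 2 and 3 and Day 6 WT replicate 1 gave 1 call. The yucasin label of the Day 6 mutant libraries cannot be told apart from time or genotype in this second interval.

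With the study's further limit of a log2 fold change beyond 2 in either direction, 6 of 12 members passed in WT from Day 0 to Day 4 (39.4% of all variants) and 1, *SAUR55*, from Day 4 to Day 6 (1.96%). In the mutant 2 passed in the first interval (32.7%) and 0 in the second (1.63%). Between genotypes 0 passed at Day 0 (1.34%), 1, *SAUR50*, at Day 4 (3.33%) and 4, *SAUR50*, *SAUR8*, *SAUR51* and *SAUR55*, at Day 6 (10.1%). For genotype by time 2 passed in the first interval (2.76%) and 0 in the second (2.81%). For genes with a group at the read floor, the fitted value behind this limit depends on the prior count.

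Among tested members, the highest coding identities were those between *SAUR50*, *SAUR8*, *SAUR51* and *SAUR9*, and *SAUR9* did not share the pattern of the others. No tree was built. Among the 66 pairs of tested members, *SAUR8* and *SAUR50* had the highest identity of coding bases in a global alignment (82.3%), followed by *SAUR50* and *SAUR51* (72.8%). *SAUR8* and *SAUR51* aligned at 68.8%. *SAUR9* aligned at 70.4% with *SAUR50* and 67.6% with *SAUR51*, and did not differ between genotypes at the threshold on any day. The 3 genes lie on chromosomes 2 (*SAUR8*), 4 (*SAUR50*) and 1 (*SAUR51*), and *SAUR50* stands next to the untested *SAUR1* to *SAUR5* in its array (16582183 to 16599568). Some untested members were closer than *SAUR9*. *SAUR16* aligned at 76.2% with *SAUR50*, 73% with *SAUR51* and 70.3% with *SAUR8*. *SAUR12*, which had no row, aligned at 75.7% with *SAUR50*, and *SAUR9* itself aligned at 73.8% with *SAUR10*, also without a row. *SAUR16* had 2, 2 and 2 reads in Day 4 WT, 1, 3 and 6 in Day 6 WT, and 0 in every mutant library. It was picked out after its values had been seen. *SAUR71* and *SAUR72* aligned at 63.2%.

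Some markers of other cell types differed between genotypes in culture. The summed CPM of 4 vascular genes was 8.66 to 13.6 in WT and 1.06 to 1.38 in the mutant at Day 4, and 24.2 to 27.9 and 1.48 to 2.11 at Day 6, after 0.769 to 1.83 in both genotypes at Day 0. Of these, *SUC2*, a sucrose transporter of phloem companion cells, carried the change (23.5 to 27.3 CPM in Day 6 WT), while *APL*, *IRX3* and *XCP1* were not tested and *APL* had 0 reads in every cultured WT library. *SAUR50*, *SAUR8* and *SAUR51* together were at 3.33 to 4.6 CPM in WT and 0.412 to 0.704 in the mutant at Day 4, and 8.53 to 14.0 and 0.262 to 0.79 CPM at Day 6. *SAUR55* was higher in the mutant at both Day 4 and Day 6. The summed level of 4 epidermis genes overlapped at Day 4, at 8.94 to 17.3 CPM in WT and 14.4 to 19 in the mutant, and 0 of the 2 tested passed. At Day 6 it was 2.19 to 3.67 CPM in WT and 18.9 to 21.5 in the mutant, with *KCS6* the member that passed. *PDF1* was at 0 reads in culture. Guard cell genes summed to 7.27 to 10.7 CPM in WT and 11.0 to 13.7 in the mutant, and mesophyll genes to 304 to 449 and 141 to 252 CPM, at Day 6. Single genes went against these sums: the guard cell gene *MYB60* was at 3.49 to 5.92 CPM in WT and 0.352 to 0.828 CPM in the mutant at Day 4 (log2 fold change -2.94, FDR 1.69e-05), and 2.16 to 2.33 and 0.741 to 1.58 CPM at Day 6. The mesophyll gene *CA1* was at 2.67 to 3.69 CPM in WT and 6.02 to 8.17 CPM in the mutant at Day 6 (FDR 0.0102), where the mesophyll sum was mostly *RBCS1A* (254 to 381 and 101 to 177 CPM). The part of these markers in the SAUR results was not tested.

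The partners of SAUR proteins were read from fixed lists. Of 9 PP2C.D phosphatase genes, 8 were tested. From Day 0 to Day 4, 0 rose and 5 fell in each genotype (42.6% and 37% of all variants in WT, 39% and 36.1% in the mutant), with medians of -1.24 in WT and -1.50 in the mutant beside 0.23 and 0.18 over all variants. Their summed level was 1180 to 1640 CPM at Day 0 and 225 to 394 CPM in culture. Between genotypes 2 were higher and 1 lower in the mutant on both Days 4 and 6 (14.8% and 13% of all variants at Day 4, 24% and 23.4% at Day 6). AT4G33920 had the largest increase on both days (log2 fold change 1.01 ± 0.173 SE, FDR 0.000115, and 1.09 ± 0.171 SE, FDR 1.88e-05) and AT3G17090 the largest decrease (-0.65 ± 0.124 SE, FDR 0.000358, and -0.99 ± 0.128 SE, FDR 1.67e-06). AT4G33920 was at 46.5 to 82.9 CPM in Day 4 WT and 103 to 138 CPM in the Day 4 mutant.

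Of 11 AHA proton pump genes, 9 were tested. From Day 0 to Day 4, 5 rose and 3 fell in WT and 4 rose and 4 fell in the mutant, 8 of 9 in each, near the 79.5% and 75% of all variants called. *AHA3* (named *HA3* in RefSeq) was at 3.05 to 5.25 CPM in fresh protoplasts and 109 to 208 CPM in culture, and *AHA2* was at 1230 to 2960 and 560 to 985 CPM. Between genotypes at Day 0, 0 of the 9 were higher and 3 lower in the mutant, against 6.4% and 1.84% of all variants. The summed level of the 10 with a row was 2840 to 3470 CPM in Day 0 WT and 1540 to 2330 CPM in the Day 0 mutant. At Day 4, *AHA11* alone of the 9 passed between genotypes (-1.23 ± 0.28 SE, FDR 0.00155), against 27.8% of all variants. At Day 6, 2 were higher and 1 lower in the mutant, against 47.4% of all variants called: *AHA7* was higher by 2.097 ± 0.325 (SE, FDR 1.63e-05), *AHA1* also passed, and *AHA11* was lower (-3.09 ± 0.322 SE, FDR 9.74e-08). *AHA11* was at 8.89 to 10.6 CPM in Day 6 WT and 0.923 to 1.83 CPM in the Day 6 mutant.

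Of 12 transcription factor genes known to control SAUR genes in other tissues, 11 were tested, and 2 of them are the mutated genes. At Day 4, 0 were higher and 4 lower in the mutant, and at Day 6, 2 were higher and 6 lower, against 27.8% and 47.4% of all variants called in either direction. The lower genes include both mutated genes on each day. The largest decrease on both days was that of *ARF19* itself (-2.45 ± 0.167 and -3.07 ± 0.17 SE, FDR 2.88e-09 and 1.54e-11). Besides *ARF19* and *NPH4*, the lower genes at Day 6 were *ARF6*, *ARF8* and the brassinosteroid factors *BES1* and *BZR1*, of which *ARF8* had 125, 123 and 112 reads in WT and 13, 30 and 14 in the mutant (-1.92 ± 0.272 SE, FDR 5.28e-06). The higher genes were those of 2 phytochrome interacting factors, *PIL5* (1.59 ± 0.356 SE, FDR 0.000753) and *PIL6*. *ARF5* (*MP* in RefSeq) did not pass on either day (FDR 0.042 and 0.369). In WT, *ARF19* was at 6.91 to 11.2 CPM at Day 0 and 68.7 to 81.5 CPM at Day 6 and in the mutant it lay at 7.12 to 13.1 CPM.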

How the data were processed

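RNA from the 18 protoplast libraries was prepared with a stranded mRNA kit. The authors mapped single-end reads with Bowtie 0.12.9 to TAIR10, kept uniquely mapped reads and deposited a raw count for each splice variant with each library's total of mapped reads. The counting tool, its use of strand and the read length are not given in the sources used here. Counts of all variants sum to 1.45 to 1.51 times the totals, since variants share reads.

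All 18 libraries entered one edgeR 4.0.16 (R 4.3.3) model with 6 group means, the authors' totals as library sizes, TMM scaling and quasi-likelihood F tests. filterByExpr (minimum count 10, minimum total 15) kept 25202 of 32294 variants. FDRs are Benjamini-Hochberg values over all of them, and FDR < 0.01 was the threshold. The study's further limit of |log2FC| > 2 was counted as an alternative. SEs were derived from the F statistic. A gene with at most 3 reads in every library of a group is given as a ratio of pooled reads with an exact 95% interval, or against a floor of 3 reads. Comparisons share libraries, so they are not independent.

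Locations, transcripts and upstream sequences are RefSeq's for TAIR10.1. The deposited tables give no coordinates, and genes were matched by locus. Motif and alignment steps used Python 3.11.15 and Biopython 1.88. Genes named by rule are the 2 that rose most and the 2 that fell most in each comparison within a genotype or day. The 4 with the highest level per kb are also named, and values are given for the libraries under discussion. From each partner list, the gene with the largest change in each direction at Days 4 and 6 is named. Other names were added after values had been seen. Members and lists were chosen with earlier results of these data known. DESeq2 1.42.0, other scalings, filters, limits and libraries, a replicate block and each library left out in turn were tried as alternatives.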

Additional observations from a re-analysis of the deposited data

Results flagged for a closer look

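2 results stood out because the effect of culture from Day 0 to Day 4 differed between genotypes by a test of the difference itself. For *SAUR32* the difference of log2 changes was 3.36 (FDR 0.000607, edgeR), with a change of -1.42 in WT and 1.95 in *nph4-1 arf19-1*. It rests on few reads: 12, 13 and 7 at Day 0 and 6, 5 and 5 at Day 4 in WT. The mutant had 3, 4 and 3 reads and then 17, 20 and 7. The fall in WT also lost its call without TMM, with DESeq2 and with some libraries left out, as given above. The mutant was lower than WT at Day 0 (-1.50, FDR 0.0345, not past the test) and higher at Day 4 (1.86, FDR 0.000887), and both differences enter this value. For *SAUR55* it was 2.46 (FDR 0.000147, edgeR), with a change of -2.43 in WT and 0.03 in the mutant. The Day 0 level of *SAUR55* was also lower in the mutant (20.8 to 50.7 CPM) than in WT (53 to 89.4 CPM). That Day 0 difference did not pass the test and enters this value too.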

How the results depend on the processing

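The counts of SAUR genes past the test depended on the settings as follows. Fitting only the groups compared gave 5 genes instead of 10 for WT from Day 0 to Day 4, 3 instead of 1 for the mutant from Day 4 to Day 6, and 1 instead of 3 between genotypes at Day 4. Adding the limit |log2FC| > 2 gave 6 instead of 10 and 1 instead of 4 for the 2 intervals in WT, 2 instead of 4 and 0 instead of 1 in the mutant, and 1 instead of 3 between genotypes at Day 4. FDR < 0.05 gave 7 for WT from Day 4 to Day 6, 4 for the mutant from Day 4 to Day 6, 4 between genotypes at Day 0 and 7 at Day 4. Library totals without TMM gave 8 for the mutant from Day 0 to Day 4, 2 from Day 4 to Day 6, and 1 between genotypes at Day 0. No filter beyond 1 read gave 3 for the mutant from Day 4 to Day 6, 1 between genotypes at Day 0 and 1 for genotype by time from Day 4 to Day 6. Leaving out each replicate in turn gave 0 to 3 for the mutant from Day 4 to Day 6, 0 to 1 between genotypes at Day 0 and 0 to 1 for genotype by time from Day 4 to Day 6. *SAUR36* in WT from Day 0 to Day 4 turned to 0.30 without TMM. Of 29 changes of single genes past the test, recomputed under alternatives other than left-out libraries, 189 of 198 values kept direction and call, 8 lost the call and 1 reversed. A further 5 calls could not be recomputed with only the groups compared, because the genes then did not pass the filter on low counts: *SAUR8*, *SAUR32* and *SAUR51* in WT from Day 0 to Day 4, and *SAUR32* and *SAUR50* between genotypes at Day 4. With libraries left out, 162 of 186 did and 24 lost the call. The cause was not tested.

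Same-numbered libraries had correlations of -0.0924 to 0.272 in their deviations, and in no comparison did every pair exceed 0.1. Some pairs did, as between genotypes at Day 4 (0.272 and 0.176) and in WT from Day 4 to Day 6 (0.203 and 0.107). Whether replicate numbers pair the libraries is not settled by these values. With a replicate block the counts were 10, 4, 4 and 1 for the intervals in WT and the mutant, 0, 3 and 5 between genotypes at Days 0, 4 and 6, and 2 and 0 for genotype by time, as without it. At most 3 reads, or 0.282 to 0.786 CPM, was the floor, and the 19 members with a row that did not pass the filter on low counts were not tested.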

Other observations

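Outside the 44 loci, 34 further genes carry a SAUR-like product in RefSeq. Of these, 24 had a row and 8 were tested, and they were looked at after their values had been seen. *SAUR30* was at 84.6 to 138 CPM in fresh protoplasts, 21.1 to 46.7 CPM at Day 4 and 42.7 to 53.6 CPM in WT against 89.5 to 92.8 CPM in *nph4-1 arf19-1* at Day 6 (log2 fold change 0.94 ± 0.17 SE, FDR 8.55e-05, edgeR). *SAUR59* was the only one of the 8 past the test between genotypes at Day 0, at 32.1 to 42.3 CPM in WT and 80.3 to 108 CPM in the mutant (1.30 ± 0.148 SE, FDR 4.75e-06, edgeR). *SAUR34* had 25, 75 and 26 reads in Day 0 WT and 28, 56 and 39 in the Day 0 mutant, and 0 to 3 reads in each cultured library. From Day 0 to Day 4, 4 of the 8 fell in WT and 6 in the mutant (37% and 36.1% of all variants), and 1 rose in each (42.6% and 39%). Among the untested members, and also picked out after its values had been seen, *SAUR5* had 8, 7 and 6 reads in the Day 6 mutant and 0 in every Day 6 WT library.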
